A study of Mus musculus with 2 samples.

Results

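Mir214, Mir199a-2, Mir199a-1 and Mir199b are mouse miRNA genes that lie inside dynamin genes on the strand opposite to the dynamin transcript. They were chosen by symbol and found through their Ensembl identifiers, and make up 4 of the 1973 miRNA genes counted in the series. The libraries were made from total RNA of whole limb tissue of B6NCrl mouse embryos at embryonic day 13.5, male and female embryos being pooled, with no treatment and no mutation named in the labels. There is 1 group of 2 biological replicates, taken from separate tissue samples under a shared donor label, so levels were described and no condition was compared with another. A level is given as CPM, the sense-strand read count of a hairpin gene scaled to 1000000 sense-strand counts in all miRNA genes of the library. A miRNA read spans a whole mature RNA, so no scaling by gene length was applied.

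A miRNA is cut from a hairpin in a longer primary transcript, and either arm of the hairpin can give a mature RNA. Bases 2 to 8 of the mature RNA, the seed, pair with target transcripts and lower their stability or translation. Mir214 and Mir199a-2 come from Dnm3os, a noncoding RNA that runs antisense through Dnm3. In the mouse embryo Dnm3os is transcribed in mesenchyme, its promoter responds to the mesenchymal transcription factor Twist1, and mice that lack it have skeletal defects. In mouse cells miR-214 is known to lower the Polycomb methyltransferase Ezh2 during muscle differentiation and Atf4 in osteoblasts, and a product of Mir199a lowers Smad1, a BMP signal transducer, during cartilage differentiation.

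All 4 genes lay where the label places them. In mm10 coordinates Mir214 is at chr1:162223368-162223477 and Mir199a-2 at chr1:162217814-162217923, both on the plus strand, with 5444 bases between them. Both overlapped exons of Dnm3os and lay in introns of Dnm3 on the other strand. The whole Mir214 hairpin is spanned by 2 Dnm3os transcripts and lies in an exon of both, and 1 other transcript ends inside it. The whole Mir199a-2 hairpin is spanned by 3 Dnm3os transcripts and lies within an exon in 2 of them, and 2 others start inside it. Mir199b, at chr2:32318460-32318569 on the plus strand, lay in introns of all 10 Dnm1 transcripts that span it. Mir199a-1, at chr9:21496495-21496564 on the minus strand, lay in introns of all 10 Dnm2 transcripts that span it. GENCODE M21 annotates no host gene on their own strand for these last hairpins.

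The mature sequences from RefSeq (GRCm38.p6) are shown because they decide which reads can be counted at which gene; capitals mark the seed. The table lists 1 mature sequence for Mir199b.
mmu-miR-214-5p: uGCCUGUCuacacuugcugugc
mmu-miR-214-3p: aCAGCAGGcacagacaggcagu
mmu-miR-199a-5p: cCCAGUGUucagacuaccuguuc
mmu-miR-199a-3p: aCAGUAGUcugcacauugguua
mmu-miR-199b-3p: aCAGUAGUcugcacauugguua

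The hairpins follow, with the listed mature sequences in capitals.
Mir214: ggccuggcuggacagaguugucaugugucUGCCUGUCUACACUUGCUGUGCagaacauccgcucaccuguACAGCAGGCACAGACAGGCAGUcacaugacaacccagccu
Mir199a-2: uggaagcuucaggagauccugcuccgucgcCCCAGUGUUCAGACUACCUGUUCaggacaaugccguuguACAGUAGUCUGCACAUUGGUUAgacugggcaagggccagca
Mir199a-1: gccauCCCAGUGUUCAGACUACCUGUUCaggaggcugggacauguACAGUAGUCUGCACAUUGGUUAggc
Mir199b: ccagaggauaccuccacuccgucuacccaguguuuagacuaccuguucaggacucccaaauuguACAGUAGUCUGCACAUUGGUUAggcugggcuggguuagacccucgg

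Replicate 1 held 12407140 reads, 5927321 of them counted in miRNA genes on the sense strand, and replicate 2 held 12657170 reads with 6003632 so counted. Reads mapping to several places stand in a line of their own and in no gene, and made up 30.8% of all reads in replicate 1 and 29.5% in replicate 2. Every counted marker gene of limb Hox clusters (6), cartilage (2), endothelium (1), smooth muscle (2), epithelium (7), blood (4) and liver (1) was detected, meaning at least 10 sense counts in each library. The same minimum was met by 372 of all 1973 genes counted (18.9%). Detection at that minimum does not by itself show that a cell type was present. Of 5 counted skeletal muscle markers Mir206 (3841 CPM) and Mir133b (75.3 CPM) were detected. Of 5 counted nerve markers Mir9-3 was (2.51 CPM), with 10 and 20 counts, the minimum itself in replicate 1. The rest of both lists had 0 or 1 count in each library. The undetected markers of both lists each share 22 or more hairpin bases with another miRNA gene, so their low counts do not show that the cell type was absent. In bulk tissue, fewer cells of a type and less RNA per cell cannot be told apart.

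Mir214 had by far the most counted reads of the genes, and the Mir199 genes followed in the order Mir199b, Mir199a-2 and Mir199a-1. Multimapping reads are in no gene, so this is an order of counts and not of RNA made. Mir214 had 165425 counts in replicate 1 and 174662 in replicate 2, or 27909 and 29093 CPM, a mean of 28501 ± 837 CPM (SD, n = 2). Mir199b had 14223 and 9548 counts, or 2400 and 1590 CPM, a mean of 1995 ± 572 CPM. Mir199a-2 had 1821 and 1583 counts, or 307 and 264 CPM, a mean of 285 ± 31 CPM. These levels did not overlap between genes, and the order was the same in each library.

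Mir199a-1, the Dnm2 copy, was the lowest, with 230 and 139 counts, or 38.8 and 23.2 CPM, a mean of 31.0 ± 11.1 CPM. Its exact Poisson 95% intervals were 34.0 to 44.2 CPM in replicate 1 and 19.5 to 27.3 CPM in replicate 2, while those of Mir214 spanned 27775 to 28044 and 28956 to 29230 CPM. Counting error was therefore larger relative to the level for Mir199a-1, and such intervals leave out every other source of error. All 4 genes passed the detection minimum of 10 counts in each library, which 372 of the 1973 genes (18.9%) passed.

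**Figure D1:**
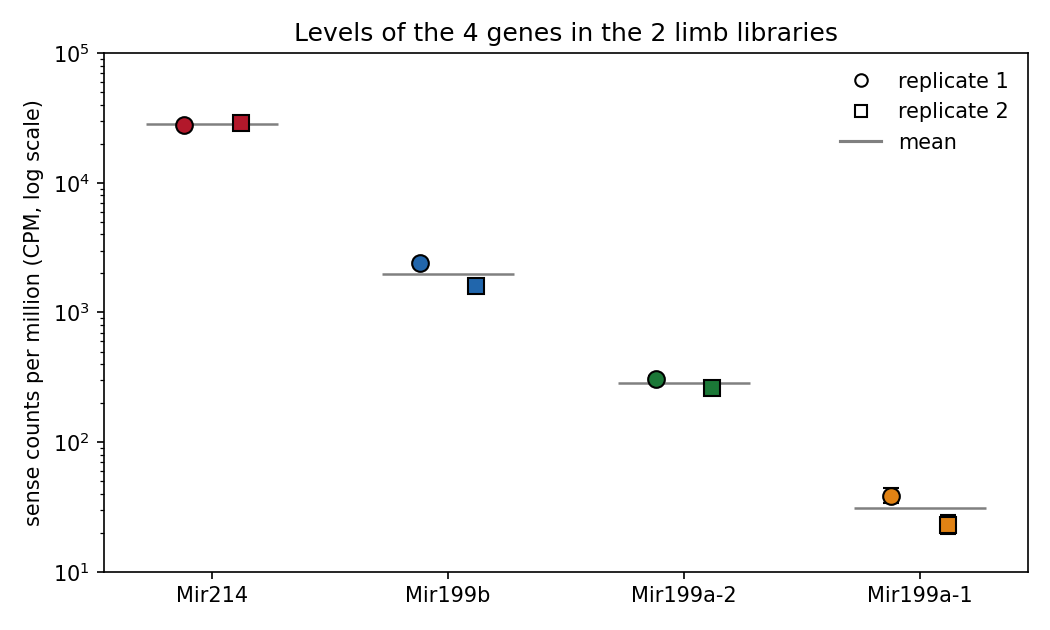
Sense-strand CPM (log axis) of each gene in replicate 1 (circles) and replicate 2 (squares), with the mean as a grey line; bars are exact Poisson 95% intervals, mostly smaller than the symbols. Mir214 lies near 28501 CPM in both libraries, and each Mir199 gene is lower in replicate 2 than in replicate 1.

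Together the 4 genes held 3.07% of sense counts in replicate 1 and 3.10% in replicate 2, a mean of 3.08% ± 0.02 (SD, n = 2). Mir214 supplied 91.0% and 93.9% of that, so the sum follows this gene. The 3 Mir199 genes held 0.275% and 0.188% of sense counts. Within the Mir199 genes, Mir199b supplied 86.1% ± 1.9, Mir199a-2 12.6% ± 2.0 and Mir199a-1 1.32% ± 0.13 (SD, n = 2).

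Among all counted miRNA genes Mir214 stood 11th by mean level, at place 11 in replicate 1 and place 10 in replicate 2. Just above it were Mir17 (30533 ± 4775 CPM) and Mirlet7i (31984 ± 3757 CPM), which were not told apart from Mir214: Mir17 was above it in replicate 1 and below it in replicate 2, and the gap to Mirlet7i was smaller than the SD of Mirlet7i. Just below it were Mir99b (25670 ± 1658 CPM) and Mir26b (24862 ± 998 CPM), which were lower than Mir214 in each library, with gaps between the means larger than the SDs.

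Mir199b stood at place 71, between Mir455 (2020 ± 40 CPM) and Mir503 (1955 ± 183 CPM), with Mir182 and Mir298 next on either side. Its own place ran from 64 in replicate 1 to 80 in replicate 2, and it changed order with all of these neighbours between the libraries. Mir199a-2 stood at place 140 in the mean and in each library. Its nearest neighbours were Mir598, Mir181a-2, Mir155 and Mir187, between 300.5 and 268.5 CPM, and none of them was told apart from it. Mir199a-1 stood at place 243, beside Mir450-1, Mir302b, Mir3072 and Mir7689, all between 30.7 and 31.7 CPM, and its order against each differed between the libraries.

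**Figure D2:**
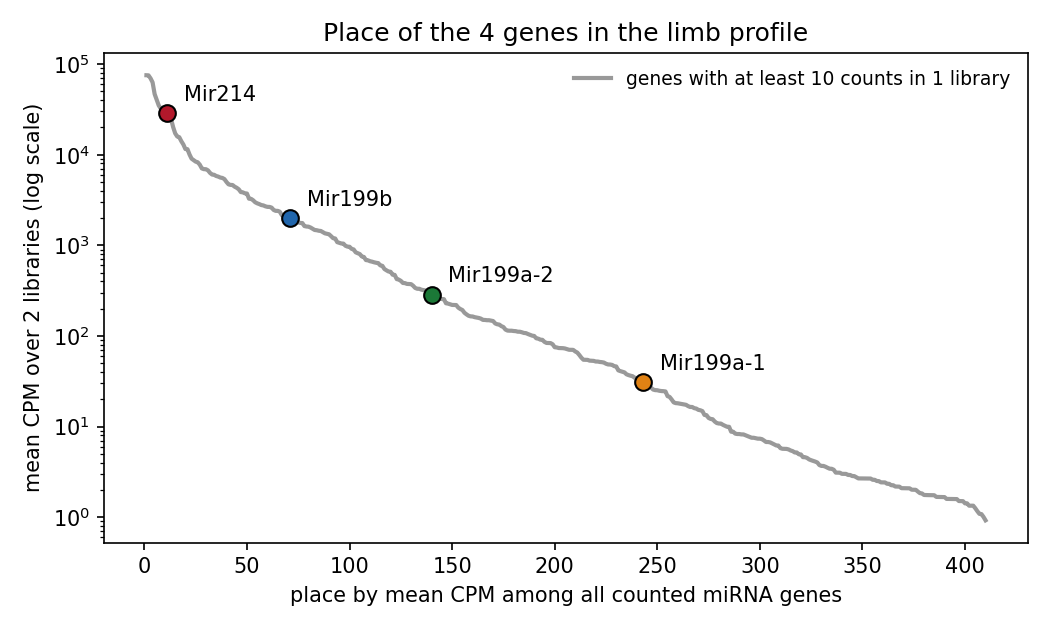
Mean CPM (log axis) of the miRNA genes with at least 10 counts in 1 library, in order of mean level, with the 4 genes marked. Mir214 sits at place 11 on the steep upper part of the curve, and the Mir199 genes at places 71, 140 and 243.

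The hairpins differed in how much of their sequence belongs to them alone. No window of 18 or more bases of Mir214 occurred at another of the 2198 annotated miRNA loci, searched on both strands: all 89 windows of 22 bases were its own. For Mir199b 81 of 89 such windows were unique, for Mir199a-2 77 of 89 and for Mir199a-1 36 of 49. The annotated Mir199a-1 hairpin is 70 bases long and each of the others 110, so it holds less sequence outside the arms. These shares are therefore not on an equal footing. The shared windows fell on the mature arms. The longest identical stretch was 28 bases between Mir199a-1 and Mir199b, 27 between Mir199a-2 and Mir199b, and 27 between Mir199a-2 and Mir199a-1, and the first of these spans the whole 3′ arm.

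The 3′ mature sequence printed above is the same at all 3 Mir199 loci, and miR-199a-5p is the same at Mir199a-1 and Mir199a-2. A read of exactly such a sequence matches several places, and multimapping reads enter no gene. Mir199b is the exception on the 5′ side. The stretch of its hairpin that lines up with miR-199a-5p, bases 26 to 48 (chr2:32318485-32318507), differs from it at 1 position. The substitution is C10U, counted from 1 at the 5′ end of miR-199a-5p, and the stretch was found at no other miRNA locus. The pair is shown with that base in capitals.
mmu-miR-199a-5p: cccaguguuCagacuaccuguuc
Mir199b: cccaguguuUagacuaccuguuc

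Reads that run past a mature end can still separate the copies. The base just before miR-199a-5p is enough to tell Mir199a-2 from Mir199a-1, whereas at its 3′ end 5 further bases are needed. For miR-199a-3p, 2 further bases at the 3′ end single out Mir199a-2, and the 3′ arm of Mir199b needs 4 among annotated sequences. For Mir199a-1 no extension of the 3′ arm at its 3′ end was unique within the annotated hairpin. That hairpin ends in ggc after the arm, so the last base of the Mir199b form was not compared with Mir199a-1. Whether that form tells these copies apart in the genome was not tested. The shortest extended forms are printed with the added bases in capitals.
Mir199a-2 before miR-199a-5p: Ccccaguguucagacuaccuguuc
Mir199a-1 before miR-199a-5p: Ucccaguguucagacuaccuguuc
Mir199a-2 after miR-199a-3p: acaguagucugcacauugguuaGA
Mir199b after miR-199b-3p: acaguagucugcacauugguuaGGCU
The deposited counts are per hairpin, so they do not show which arm or which end form was read. The values of the Mir199 genes are therefore those of uniquely mapped reads, they are uncertain as levels of the loci, and their order does not rank the transcription of Dnm3os, Dnm1-antisense and Dnm2-antisense RNA. Copies outside annotated miRNA genes were searched only in GENCODE M21 transcripts, where the mature sequences occurred in Dnm3os alone.

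**Figure D3:**
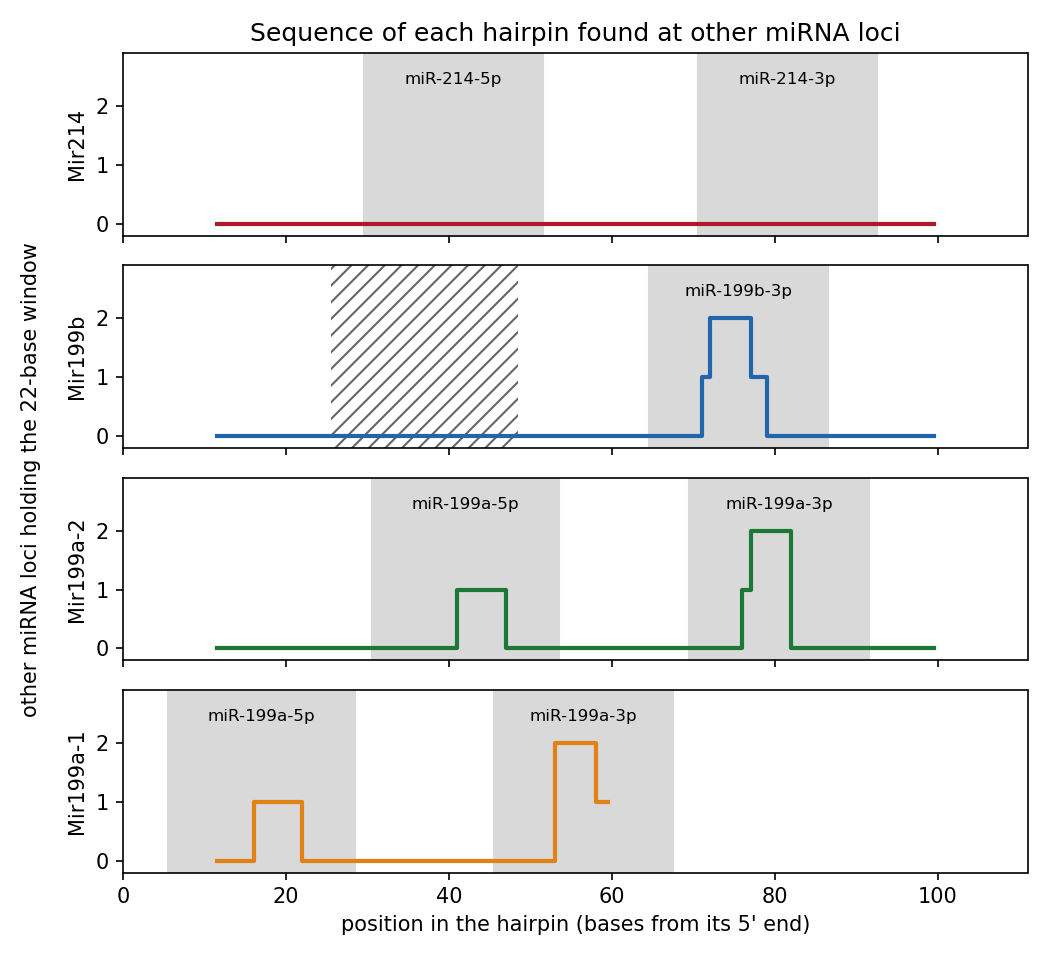
For each hairpin, the number of other miRNA loci (vertical axis) that hold the same 22-base window, at the position of the window's centre in bases from the 5′ end; grey bands are the listed mature sequences and the hatched band is the stretch of Mir199b that lines up with miR-199a-5p. Mir214 stays at 0 along its length, and the Mir199 hairpins reach 2 over the 3′ arm.

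Among the 858 counted genes with a RefSeq mature sequence, the share detected was lowest where no arm was unique and highest where only some were. Of the 42 genes with no listed arm unique to them, 8 (19.0%, exact 95% interval 8.60% to 34.1%) were detected, and these 8 include all 3 Mir199 genes. Of the 762 with every listed arm unique, Mir214 among them, 273 (35.8%, 32.4% to 39.3%) were detected, and of the 54 with some arm unique, 38 (70.4%, 56.4% to 82.0%). Mir199b and Mir199a-2 had the highest CPM of the 8, above Mirlet7a-1 at 91.2 CPM, and Mir199a-1 stood at place 6. Mir199b falls in that class because only its 3′ arm is listed. These shares are descriptions and genes of a family are not independent.

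Mir214 exceeded the 3 Mir199 genes together by a log2 ratio of 3.35 in replicate 1 and 3.95 in replicate 2, a mean of 3.65 ± 0.43 (SD, n = 2), or 10.2-fold and 15.5-fold. Between the Dnm3os hairpins the gap was wider: Mir214 over Mir199a-2 gave log2 ratios of 6.50 and 6.79, a mean of 6.65 ± 0.20, although 2 annotated Dnm3os transcripts span both hairpins. Mir199b over Mir199a-1 gave 5.95 and 6.10, a mean of 6.02 ± 0.11. Each ratio was larger than its spread, but with 2 libraries the smallest two-sided exact p is 0.5, and no test was made. Multimapping reads are in no gene, the Mir199 genes share arms and Mir214 shares none; the part of this in the ratios was not tested.

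Unequal counts from neighbouring hairpins were common in these libraries. The Dnm3os pair, at an absolute log2 difference of 6.65, took place 15 among 99 pairs of next neighbours on 1 strand within 10 kb, with at least 10 counts in 1 library for each gene. The median over these pairs was 2.98, with quartiles at 1.30 and 5.17, and 14 pairs differed more than the Dnm3os pair, led by Mir411 and Mir1197 at 11.1. The pairs with both genes on a list of miRNA genes linked to mesenchyme were Mir143 and Mir145a, which differed by 5.95, and Mir23b and Mir27b, which differed by 3.59. Some pairs have a gene in common, so this is a description. Some also hold a gene with no listed arm unique to it, such as Mirlet7a-1, whose multimapping reads are likewise missing. The part of such missing reads in these differences was not tested.

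**Figure D4:**
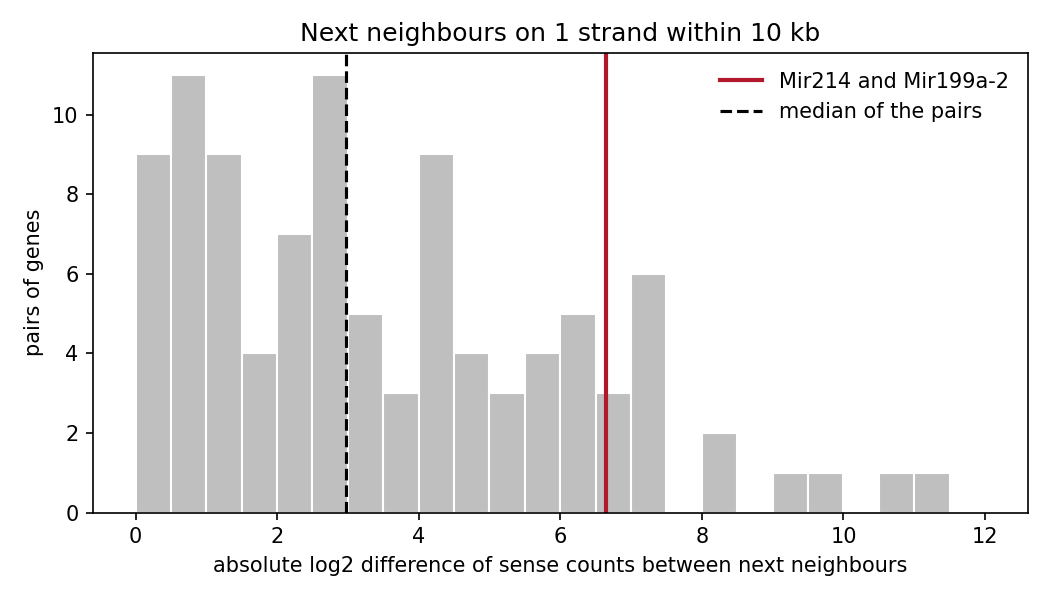
Number of pairs of next-neighbour miRNA genes (same strand, within 10 kb) by absolute log2 difference of their sense counts, with the Dnm3os pair as a red line and the median of the 99 pairs as a dashed line. The Dnm3os pair lies at 6.65, right of the median of 2.98 and inside the range of the other pairs.

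Between the libraries, all 3 Mir199 genes were lower in replicate 2 than in replicate 1 while Mir214 was slightly higher. The log2 ratio of replicate 2 over replicate 1 was -0.74 for Mir199a-1, -0.59 for Mir199b, -0.22 for Mir199a-2 and 0.06 for Mir214. In a two-sided exact binomial test over 410 genes with Benjamini-Hochberg adjustment, a call needed an adjusted p under 0.05 and a log2 ratio of 1 or more in size, which none of the 4 genes and 3.41% of all genes tested met. On the adjusted p alone, the 3 Mir199 genes were among the 23.9% of genes that were lower in replicate 2, and Mir214 was among the 19.8% that were higher. The adjusted p by this exact test was 8.85e-215 for Mir199b, 4.93e-06 for Mir199a-1, 3.56e-05 for Mir199a-2 and 8.68e-33 for Mir214, values that cover counting error only and compare libraries of the same group.

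Set against genes of like level, Mir199b was among the least repeatable. Its absolute ratio was second of 97 genes with at least 1000 CPM, whose median was 0.11; the largest, 0.73, belonged to Mir181b-2, which was named after its value was seen. Mir199a-1 was seventh of 93 genes between 10 and 100 CPM, where the median was 0.17, and Mir199a-2 was 25th of 93 genes between 100 and 1000 CPM, where it was 0.13. Mir214 was 71st of the 97. These level classes were set after the data were seen. The other 6 genes with no listed arm unique and at least 10 counts in 1 library had a median log2 ratio of 0.10, with 2 lower and 4 higher in replicate 2. The higher ones were Mir129-1 (3 and 19 counts, 2.46), Mir9-3 (10 and 20, 0.95), Mir219a-2 (41 and 47, 0.18) and Mirlet7c-2 (290 and 300, 0.03). The lower ones were Mir3074-1 (361 and 273, -0.42) and Mirlet7a-1 (591 and 496, -0.27). That median thus leans on genes with few counts. The share of multimapping reads also differed between the libraries. So did several gene lists, in either direction. CPM was larger in the second library for 177 of the 372 detected genes. The same held for 6 of 7 epithelium-linked genes (summed log2 ratio 0.22) and 7 of 11 mesenchyme-linked genes (0.07). It held for 1 of 6 limb Hox markers (-0.14), 2 of 2 smooth muscle markers (0.17) and 1 of 1 liver marker (0.27). The summed log2 ratios of the other marker lists were -0.09 (endothelium), 0.07 (skeletal muscle), -0.003 (cartilage), 0.0003 (blood) and 0.98 (nerve, from Mir9-3 alone). The lists overlap: Mir143 and Mir145a are both smooth muscle and mesenchyme-linked, and Mir10b is both mesenchyme-linked and a limb Hox marker. The part of any of these shifts in the Mir199 difference was not tested.

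**Figure D5:**
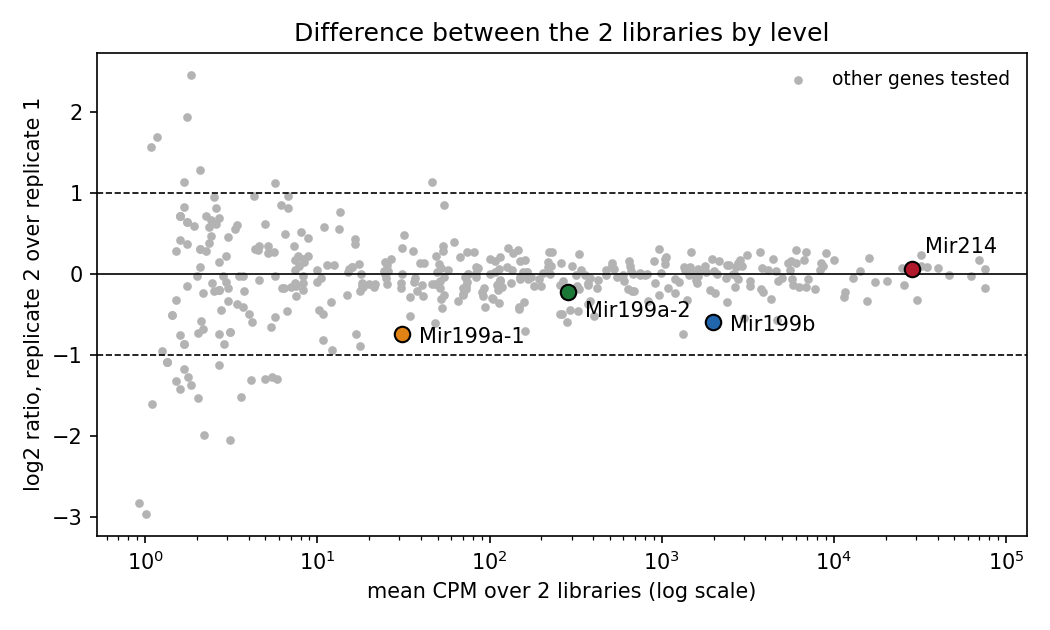
Log2 ratio of replicate 2 over replicate 1 (vertical axis) against mean CPM (log axis) for the 410 genes tested; dashed lines mark the minimum ratio of a call and coloured points the 4 genes. Mir214 lies at 0.06 near the zero line, and Mir199b at -0.59 and Mir199a-1 at -0.74 lie at the lower edge of the genes of their level.

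Reads over these loci were almost all on the miRNA strand, the one opposite to the dynamin transcripts. The antisense column held 2 and 4 reads over Mir214 in replicates 1 and 2, 0.00121% and 0.00229% of its reads, and 0 reads over each Mir199 gene in both libraries. The meaning of the columns was taken from their layout, as no header names them, so the strand stated here rests on that reading. No annotated miRNA gene overlapped any of the 4. Gm23363, annotated 116 bases from Mir199b on the same strand, had 6 counts in each library.

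Few other genes share the seeds of these miRNAs. Mir761 was the one non-member found with a matching seed, CAGCAGG, that of miR-214-3p, and it had 0 counts in both libraries, a limit of 3 counts or 0.506 CPM in the first library and 0.4997 CPM in the second. Its sequence is shown beside miR-214-3p, seed in capitals, to show that the bases on either side of the seed differ.
mmu-miR-214-3p: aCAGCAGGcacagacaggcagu
mmu-miR-761: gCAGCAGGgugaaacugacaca
The seeds of miR-199a-5p, of the shared 3′ arm and of miR-214-5p occurred in no listed mature miRNA of another gene. The 3′ arms of miR-199a and miR-199b thus form 1 seed group with 3 source genes, and miR-199a-5p a group with 2 among listed sequences. The unlisted stretch of Mir199b that lines up with miR-199a-5p has the same seed, since position 10 lies outside bases 2 to 8.

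Set beside other miRNA genes linked to mesenchyme, Mir214 was near the top and the Mir199 genes spread down the range. Of the 12 genes on that list 11 were counted and 9 detected, where 18.9% of all genes counted were detected. Mir24-1 is not counted under its own gene. The median level was 1140 CPM for the 4 genes, against 2105 CPM for that list, 106 CPM for all detected genes and 0 CPM for all genes counted. Mir23b (34952 ± 1513 CPM) was above Mir214, while Mir10b (14101 ± 232 CPM), the vascular gene Mir143 (6719 ± 567 CPM) and Mir21a (4713 ± 199 CPM) were below it. Mir199b lay close to Mir22 (2105 ± 3 CPM), a gap smaller than its SD. Mir199a-2 lay above Mir145a (108 ± 1 CPM) and Mir29a (61.8 ± 12 CPM), and Mir199a-1 was not told apart from Mir29c (36.0 ± 5.1 CPM). Mir29b-2 was at 0 in both libraries and Mir29b-1 had 3 and 0 counts, and each has an arm found at another locus. The epithelium-linked list, 7 of 7 detected with a median of 1478 CPM, was led by Mir203 at 8388 ± 589 CPM, which is below Mir214 and above each Mir199 gene.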

How the data were processed

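The values are raw read counts per miRNA gene, whole numbers in 3 columns, as deposited by the authors for each library. Build mm10 and GENCODE M4 are named in the text deposited with the tables; for the aligner and counter, the sources used here give no name. Columns were read as either strand, sense and antisense. The first was read as either strand because it equals the sum of the others in all 1973 genes. That sum does not tell sense from antisense, whose order was taken from the layout. Lines naming no gene stayed out of library sizes: besides multimapping reads these were unmapped reads (17.2% and 18.6% in replicates 1 and 2) and uniquely mapped reads outside any gene's sense strand (4.24% and 4.48%).

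Identifiers matched GENCODE M21 (GRCm38, the same build) without version for 1894 genes. Sequences came from RefSeq GRCm38.p6; exact occurrences were searched in 1005 RefSeq hairpins and 2202 GENCODE miRNA transcripts. CPM and ratios (0.5 counts added) were computed with Python 3.11.15, pandas 2.3.3 and scipy 1.17.1. The exact binomial test ran on genes with at least 10 counts in 1 library. It was first tried on simulated counts that held counting error only, with no minimum ratio. That trial does not cover other differences between libraries. Only alternative scalings came from edgeR 4.0.16 and DESeq2 1.42.0. The named genes were the 4 members, hairpins near them or sharing sequence or seed with them, their 2 neighbours on either side in level, and the listed genes. Members and lists were chosen with earlier results of these data known. A count of 0 was allowed up to 3 counts.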

Additional observations from a re-analysis of the deposited data

How the results depend on the processing

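No paired analysis was possible because the series has 1 group. The 3 log2 ratios moved by less than 1 SD with antisense reads added and with pseudocounts of 1 or 0.1 counts. With 2 libraries, leaving out either gives the value of the other, printed above, and is no check of stability. Of 12 other alternatives for the 4 levels, 11 moved by less than 1 SD, the exception being Mir214 at 27584 CPM with antisense reads added. In that setting the antisense counts of all genes enter the library total, while Mir214 itself gained 2 and 4 reads. The Mir199 levels were lower as well, such as Mir199b at 1931 CPM against 1995 CPM. The share of the 4 genes, 3.08%, became 2.98% with antisense reads added, 1.47% of all reads and 2.82% of uniquely mapped reads. It became 3.16% when genes sharing 22 or more bases, apart from the 4 genes themselves, were left out of the total. Genes called between libraries numbered 14, against 13 with TMM factors, 13 with DESeq2 size factors, 15 with no filter, 14 with antisense reads added, 1 with at least 50 counts in 1 library (fewer genes tested) and 179 with no minimum ratio, by which all 4 genes were called. With a minimum of 1 count in each library 54.1% of genes with every arm unique were detected, and with 100 counts 25.6%; of genes with some arm unique 48.1% were detected with 100 counts. The order of the 3 uniqueness classes held at each minimum. Mir199a-1 had the fewest counts of the 4 genes, and so the largest counting error relative to its level. The deposited counts do not resolve arms or reads that map to several places.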
